A study of Mus musculus with 8 samples.

Results

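The lysosome is the acidic compartment in which cells break down proteins, lipids and sugar chains, and its enzymes, membrane proteins and proton pump are encoded by a well-defined set of genes. A set of 37 such genes was followed here in fat of the epididymal depot of the mouse. It held 4 genes of lipid hydrolysis, 11 of proteases, 8 of glycosidases, 5 of lysosomal membrane proteins and progranulin, 6 of the proton pump and 3 of the MiT/TFE transcription factors. The genes were chosen by name, with earlier results of these data known, and matched by exact symbol to the 31854 gene rows of the count table. A row was found for 35 of the 37, and all 35 passed the filter on low counts, among 15667 rows tested. The other 2, Ctsb and Glb1, are not analysed here.

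The tissue came from mice with a PPAR-gamma knock-in allele that puts alanine in place of serine 273 (S273A, 4 libraries, replicates 2, 3, 4 and 6) and from wild-type mice (WT, 4 libraries, replicates 1, 2, 3 and 5). All the mice were on a high-fat diet. PPAR-gamma is a nuclear receptor required for adipocyte differentiation, and alanine at this position cannot be phosphorylated. The allele is not stated to be restricted to any cell type, and the sources used here do not give the strain, the age, the number of copies of the allele or whether each library is 1 animal. The p-values therefore rest on differences among libraries of a genotype, part of which may be technical.

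Lysosomal enzymes are made in the endoplasmic reticulum, carried to the lysosome mostly by mannose 6-phosphate receptors, and activated there at the low pH that the V-ATPase proton pump maintains. TFEB and its relatives TFE3 and MITF switch on many of these genes together by binding short palindromic elements around a CACGTG core near their start sites, and they are held in the cytoplasm by mTORC1 when nutrients are plentiful. In obese fat, macrophages that take up lipid from fat cells carry a large lysosomal compartment.

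Sums of the counts ran from 16161127 to 18194889 in S273A libraries and from 14880239 to 17266209 in WT libraries, and the lowest count of any of the 35 genes in any library was 624, for Tfeb. Levels are given as CPM, counts scaled to a common library size. Log2 CPM of any 2 libraries correlated at 0.985 to 0.993 across genes, and the counts of no 2 libraries were as close as repeated sampling of 1 library would make them (chi-square over its degrees of freedom at least 5.83). All 10, 14, 8 and 8 listed markers of adipocytes, macrophages, lipid-associated macrophages and fibroblasts passed the filter. So did all 8 mesothelial, 6 endothelial and 8 T and B lymphocyte markers, and 6 of 8 red blood cell markers. Of 10 markers of epididymis and testis, 8 had a row, 4 of these held no count in any library and none passed the filter. Because whole tissue was sequenced, fewer cells of a type and less RNA per cell cannot be told apart in any value below.

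Of the 35 genes, 31 had at least 1 promoter window in RefSeq (GRCm38.p6; 250 bases before to 50 after a start site), 39 windows in all. CACGTG, the core of the element that TFEB, TFE3 and MITF bind, stood in a window of 11 of the 31 genes (35.5%), against 8.09% of all 27025 genes with a window. Those 27025 genes were not matched to the 31 in level of expression. The longer TCACGTGA stood in 6 of the 31 (19.4%), against 1.12% of all genes. A still longer form, with a further base fixed at each end, was also searched and stood in 0 of the 31, against 0.37% of all genes. The share was not particular to this set. Of 60 other lysosome genes with a window, from the further list described below, 14 held CACGTG (23.3%) and 5 held TCACGTGA (8.33%). The longest form stood in 2 of those 60 (3.33%). CACGTG and TCACGTGA equal their own reverse complements, so 1 search covers both strands, and TCACGTGA contains CACGTG. The stretches around the matches in the 11 genes are shown 5′ to 3′ on the gene's own strand, with the matches they hold in capitals. They show the sequence that these 11 genes hold and the other 20 of the 31 lack. The first 6 hold TCACGTGA and the other 5 hold CACGTG alone:
Atp6v0d1, chr8:105566050-105566079, minus strand: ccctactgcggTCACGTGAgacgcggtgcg
Atp6v1a, chr16:44139373-44139402, minus strand: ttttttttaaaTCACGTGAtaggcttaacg
Ctsa, chr2:164833749-164833778, plus strand: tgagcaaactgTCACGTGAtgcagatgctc
Ctsd, chr7:142387908-142387937, minus strand: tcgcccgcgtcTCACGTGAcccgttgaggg
Gla, chrX:134601215-134601244, minus strand: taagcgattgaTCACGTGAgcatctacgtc
Mcoln1, chr8:3500462-3500491, plus strand: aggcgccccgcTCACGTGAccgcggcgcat
Ctsl, chr13:64370739-64370768, minus strand: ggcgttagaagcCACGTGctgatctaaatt
Gaa, chr11:119267811-119267840, plus strand: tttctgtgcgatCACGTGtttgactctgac
Lgmn, chr12:102439124-102439153, minus strand: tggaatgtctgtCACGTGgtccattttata
Naglu, chr11:101070009-101070038, plus strand: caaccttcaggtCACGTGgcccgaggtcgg
Lamp1, chr8:13159091-13159160, plus strand: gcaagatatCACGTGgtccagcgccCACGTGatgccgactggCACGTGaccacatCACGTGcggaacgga
The Lamp1 stretch is longer because the 70 bases before its start site hold the hexamer 4 times. The windows of Ctsa, Ctsd, Gla and Mcoln1 hold CACGTG 2 times each, of which 1 is shown, the first TCACGTGA. Asah1, Atp6v1b2, Atp6v1h and Ctsh had no window in the table. A match describes these letters in this window, and no binding was measured.

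Lysosome transcripts of the set made up 1.75% to 1.98% of normalised counts in S273A libraries and 1.83% to 2.18% in WT libraries. The 35 genes together summed to 19825, 19665, 17463 and 19521 CPM in S273A replicates 2, 3, 4 and 6, against 18284, 21833, 18854 and 19370 CPM in WT replicates 1, 2, 3 and 5. The mean sum was 19118 ± 1110 CPM in S273A and 19585 ± 1563 CPM in WT (SD, n = 4 each), and the genotypes overlapped. Psap, Ctsd and Ctsa held 42.1% of that sum in S273A and 41.7% in WT. Per kilobase of transcript, as the mean of all 8 libraries, the highest levels were those of Psap (1515 CPM per kilobase), Ctsd (1389), Ctss (551) and Lamp1 (388). The lowest were those of Tfeb (13.0 CPM per kilobase), Neu1 (15.4), Tfe3 (17.5) and Mitf (18.2). Lengths were those in the deposited table. With the merged exons of GENCODE M21 as the length, the same 4 genes led in the same order, while the 4 lowest were Tfe3, Mcoln1, Tfeb and Atp6v1h, so the lower ranks depend on the length used. The deposited length was over 1.5 times the GENCODE one for 1 gene, Ctsc, and below it by more than that factor for 8.

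**Figure D1:**
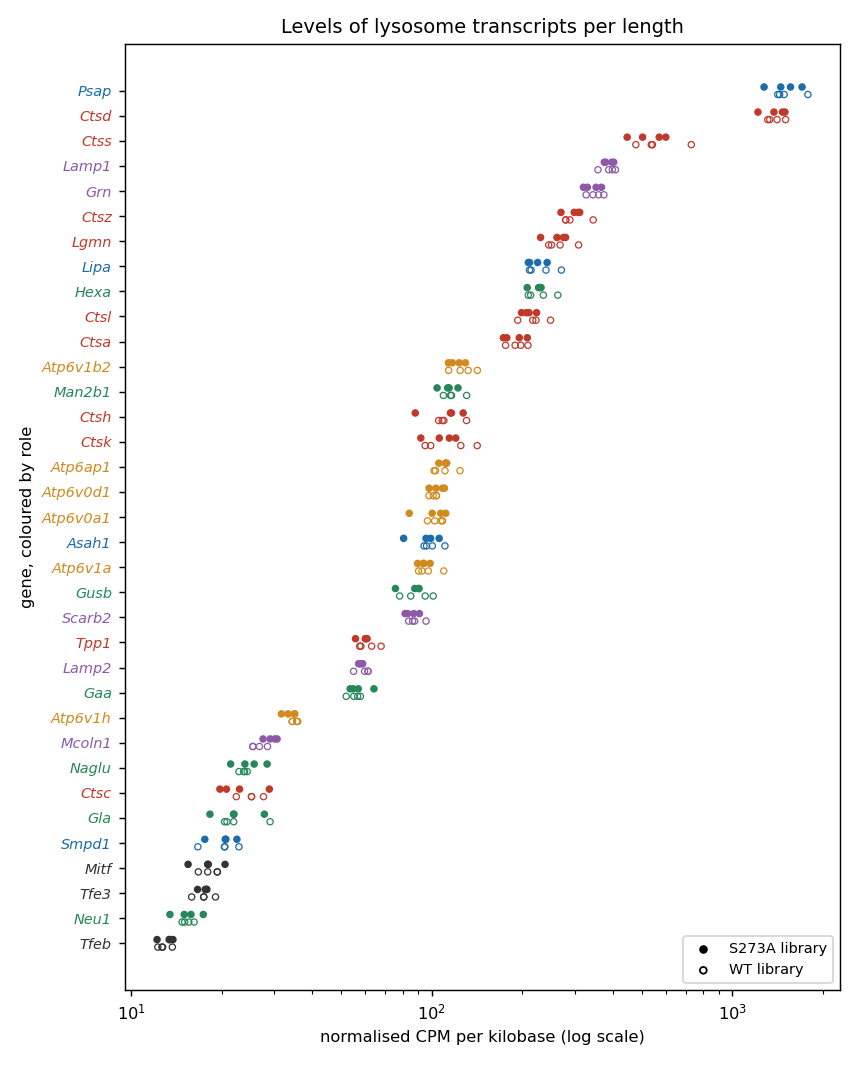
Levels of the 35 lysosome transcripts in normalised CPM per kilobase (log scale), 1 point per library, with S273A libraries as filled points above WT libraries as open points, ordered by the mean of all 8 libraries and coloured by role (blue lipid hydrolysis, red proteases, green glycosidases, purple membrane proteins and Grn, orange proton pump, black MiT/TFE factors). Levels run from 13.0 for Tfeb to 1515 for Psap, and the 2 genotypes overlap for each gene.

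None of the 35 genes passed the test for a difference between S273A and WT. At an adjusted p under 0.05 in edgeR's quasi-likelihood test over all 15667 rows, 0 were higher and 0 lower in S273A, where 0% of all rows were called. The smallest adjusted p among the 35 was 0.9999. Log2 fold changes, S273A over WT, lay between -0.12 (Ctsc) and 0.14 (Mcoln1), with a median of -0.04, where the median of all tested rows was 0.001. The data also bound what could have been missed: the 95% confidence interval lay inside a 1.5-fold change in either direction for all 35 genes. An unadjusted p under 0.05 was found for 1 gene, Mcoln1, higher in S273A, where 0.913% of all rows met it in that direction, and for 0 lower, where 0.549% did. No gene had its 4 S273A libraries all above or all below the 4 WT libraries, against 1.19% of all rows (0.657% with S273A higher and 0.53% with S273A lower).

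The estimate was below 0 for 25 of the 35 genes, against 49.3% of all rows and 53.8% of the 5361 rows at or above the level of the lowest of the 35. That count rested on 1 WT library: without WT replicate 2 the estimate was below 0 for 13 of 35 genes and the median was 0.01. Without S273A replicate 4 it was below 0 for 20 of 35, with a median of -0.01. With all 8 libraries, 12 of 14 macrophage markers had estimates below 0, with a median of -0.11. Their summed level was 4355 to 5153 CPM in S273A against 4759 to 5694 CPM in WT. Estimates were also below 0 for 7 of 8 lipid-associated macrophage markers (median -0.08). They were above 0 for 9 of 10 adipocyte markers (median 0.07), 8 of 8 mesothelial markers (0.30), 6 of 6 endothelial markers (0.09) and 6 of 6 red blood cell markers (0.64), and 0 markers of any of these lists were called. The part of these other cell types in the lysosome values was not tested. With the macrophage marker level as a covariate, the estimate was below 0 for 6 of the 35 genes, the median was 0.03, and 0 genes were called.

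**Figure D2:**
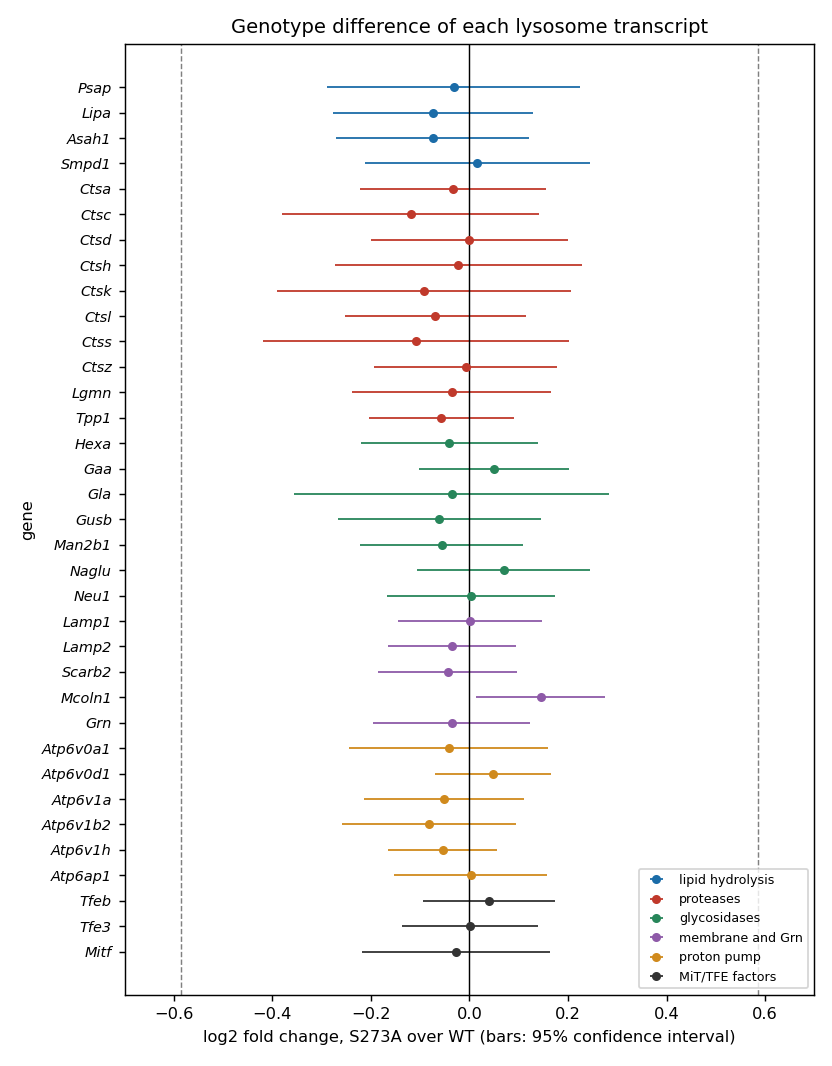
Log2 fold change of each of the 35 genes, S273A over WT, with its 95% confidence interval (bars), coloured by role. Dashed lines mark a 1.5-fold change in either direction; estimates lie between -0.12 and 0.14, and only the interval of Mcoln1 leaves out 0.

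None of the genes of lipid hydrolysis passed the test, and their 4 log2 fold changes had a median of -0.05. Psap encodes prosaposin, the precursor of the saposins that present sphingolipids to their hydrolases, and was the most abundant of all 35. It was at 4659, 4264, 3483 and 3958 CPM in S273A replicates 2, 3, 4 and 6, against 3868, 4873, 4063 and 3924 CPM in WT replicates 1, 2, 3 and 5. S273A replicate 4 held the lowest value and WT replicate 2 the highest, and the other 6 libraries of both genotypes overlapped (log2 fold change -0.03, SE 0.11, 95% confidence interval -0.29 to 0.23). Asah1, acid ceramidase, had the smallest p of the 4 (edgeR unadjusted p 0.417). It was at 282, 264, 215 and 255 CPM in S273A libraries, against 256, 295, 251 and 267 CPM in WT libraries, with the same 2 libraries at the extremes (log2 fold change -0.07, 95% confidence interval -0.27 to 0.12). Lipa, the acid lipase that splits cholesteryl esters and triglycerides taken up by the cell, was at 660 ± 44.5 CPM in S273A and 695 ± 81.1 CPM in WT (log2 fold change -0.07). Smpd1, acid sphingomyelinase, was at 72.6 ± 7.24 CPM in S273A and 71.8 ± 9.10 CPM in WT (log2 fold change 0.02; SD, n = 4 each).

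The proteases gave 10 estimates, all below 0, where 49.3% of all rows were, and none passed the test. Their median was -0.05, and the estimate of Ctsd was almost 0 (-9.8e-05). WT replicate 2 was the highest of all 8 libraries for each protease but Ctsc. Ctsd, the aspartic protease cathepsin D, was the most abundant of them per kilobase. It was at 2923, 2688, 2379 and 2868 CPM in S273A replicates 2, 3, 4 and 6, against 2564, 2939, 2603 and 2753 CPM in WT replicates 1, 2, 3 and 5. The 2 means, 2714 CPM in S273A and 2715 CPM in WT, were nearly equal, and the 95% confidence interval of the log2 fold change ran from -0.20 to 0.20. Ctsc, the dipeptidyl peptidase that activates serine proteases of leukocytes, had the smallest p of the group (edgeR unadjusted p 0.33). It was at 218, 319, 230 and 254 CPM in S273A libraries, against 278, 305, 279 and 248 CPM in WT libraries. S273A replicate 3 was the highest of all 8 libraries and S273A replicate 2 the lowest, so the spread within S273A covered the WT values (log2 fold change -0.12, 95% confidence interval -0.38 to 0.14). Without S273A replicate 3 the edgeR unadjusted p for Ctsc was 0.0184, and the gene was still not called.

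Among the cysteine cathepsins, Ctss, which trims the invariant chain of MHC class II, was at 721 ± 94.1 CPM in S273A and 778 ± 149 CPM in WT (SD, n = 4 each), with a log2 fold change of -0.11. Its widest departure was WT replicate 2, at 993 CPM, where the other 7 libraries lay between 608 and 817 CPM. Ctsl, a broad endopeptidase, was at 737 ± 35.6 CPM in S273A and 773 ± 79.5 CPM in WT (log2 fold change -0.07), and Ctsk, a collagen-degrading cathepsin best known from osteoclasts, at 171 ± 19.4 and 182 ± 34.9 CPM (-0.09). Ctsz, a carboxypeptidase, was at 427 ± 27.1 CPM in S273A and 429 ± 45.3 CPM in WT (-0.01), and Ctsh, an aminopeptidase, at 181 ± 27.0 and 184 ± 18.6 CPM (-0.02). Lgmn encodes legumain, the asparagine-specific protease that processes other cathepsins, and was at 493 ± 41.4 CPM in S273A and 505 ± 53.9 CPM in WT (-0.04). The carboxypeptidase Ctsa, which also protects beta-galactosidase and neuraminidase in a complex, was at 1243 ± 106 CPM in S273A and 1272 ± 91.2 CPM in WT (-0.03). Tpp1, tripeptidyl peptidase, was at 285 ± 11.4 CPM in S273A and 297 ± 23.2 CPM in WT (-0.06). None of these differences passed the test; for Ctsl and Tpp1 the means differed by slightly more than the SD within S273A and by less than that within WT. Of the 35 genes, 8 share annotated exon bases with another gene, so that some of their reads are uncertain, and for 4 the shared part is over 10%. Ctsd shares 34.4% of its exon bases with Gm49369 on the same strand, Ctsl 32.9% with Gm47123 and Gm49230, Ctsa 17.4% with Pltp and Neurl2, and Hexa 12.8% with Tmem202. Lamp1 shares 9.31% with Grtp1, and Ctsz, Grn and Atp6v1h share less. Opposite strands do not separate these genes, since the libraries hold no strand information.

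Glycosidases, which strip sugars from glycoproteins, glycolipids and glycosaminoglycans, gave 3 estimates above 0 and 4 below, with a median of -0.04, and none passed the test. Hexa, the alpha subunit of beta-hexosaminidase, led the group per kilobase. It was at 428, 423, 388 and 431 CPM in S273A replicates 2, 3, 4 and 6, against 398, 490, 391 and 439 CPM in WT replicates 1, 2, 3 and 5; WT replicate 2 stood above all other libraries, and the rest overlapped (log2 fold change -0.04). Naglu, a heparan sulfate glycosidase, had the smallest p (edgeR unadjusted p 0.401). It was at 105, 88.6, 79.4 and 95.1 CPM in S273A libraries, so that S273A held both the highest and the lowest value, against 84.7, 88.4, 90.2 and 87.8 CPM in WT libraries (log2 fold change 0.07, 95% confidence interval -0.11 to 0.25). Gaa, the glucosidase that breaks down lysosomal glycogen, was at 229 ± 19.2 CPM in S273A and 222 ± 10.3 CPM in WT (0.05; SD, n = 4 each). Gla, alpha-galactosidase A, had the widest interval of the 35 and was at 68.2 ± 11.9 CPM in S273A and 69.9 ± 12.1 CPM in WT (log2 fold change -0.04, 95% confidence interval -0.36 to 0.28). Gusb, beta-glucuronidase, was at 325 ± 26.7 CPM in S273A and 339 ± 38.5 CPM in WT (-0.06), and the mannosidase Man2b1 at 491 ± 32.1 and 510 ± 39.0 CPM (-0.06). Neu1, the sialidase, was at 59.4 ± 6.28 CPM in S273A and 59.3 ± 2.40 CPM in WT (0.003).

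Of the 5 genes for membrane proteins and progranulin, Mcoln1 was the one with an unadjusted p under 0.05. It encodes TRPML1, the channel that releases calcium from the lysosome and thereby activates the phosphatase that frees TFEB. Its gene lies at chr8:3500457-3515232 on the plus strand (GRCm38, GENCODE M21). Mcoln1 was at 61.3, 58.1, 55.03 and 60.2 CPM in S273A replicates 2, 3, 4 and 6, against 53.5, 56.9, 50.9 and 50.8 CPM in WT replicates 1, 2, 3 and 5. S273A replicates 2, 3 and 6 lay above all WT libraries, and S273A replicate 4 lay below WT replicate 2. Its log2 fold change of 0.14 had an SE of 0.06 and a 95% confidence interval of 0.01 to 0.27, with an edgeR unadjusted p of 0.0332 and an adjusted p of 0.9999, which did not pass. Over 16 alternatives the log2 fold change stayed between 0.12 and 0.19 and the adjusted p was never below 0.999. The unadjusted p was above 0.05 without S273A replicate 2 (0.0832) or 6 (0.0796), without WT replicate 1 (0.0542), 3 (0.0773) or 5 (0.0950), and in the replicate block fit (0.317). The genotypes did not overlap in Mcoln1 without S273A replicate 4 or without WT replicate 2, since these 2 libraries were its only overlap. The share of all rows without overlap was not counted for such smaller sets of libraries.

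Lamp1, the most abundant glycoprotein of the lysosomal membrane, had nearly equal means. It was at 900, 846, 837 and 886 CPM in S273A libraries, against 798, 912, 866 and 891 CPM in WT libraries (log2 fold change 0.001, 95% confidence interval -0.15 to 0.15). Lamp2, its relative that serves in fusion with autophagosomes, was the steadiest gene of the set within S273A. It was at 555 ± 7.36 CPM in S273A and 569 ± 29.1 CPM in WT (SD, n = 4 each), with a log2 fold change of -0.04. Without WT replicate 3 the genotypes did not overlap in Lamp2, and the share of all rows was not counted there. Scarb2, the receptor LIMP-2 that carries glucocerebrosidase to lysosomes, was at 405 ± 19.9 CPM in S273A and 418 ± 24.3 CPM in WT (-0.04). Grn, progranulin, a secreted and lysosomal protein needed for normal lysosome function, was at 798 ± 50.3 CPM in S273A and 818 ± 47.6 CPM in WT (-0.04).

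The V-ATPase consists of a membrane sector, V0, through which protons pass, and a cytosolic sector, V1, that hydrolyses ATP. Its 6 genes had 2 estimates above 0 and 4 below, with a median of -0.05, and none passed the test. Atp6v1b2, the widely expressed B subunit of V1, was the most abundant per kilobase. It was at 521, 576, 506 and 549 CPM in S273A replicates 2, 3, 4 and 6, against 506, 631, 553 and 588 CPM in WT replicates 1, 2, 3 and 5, and the genotypes overlapped (log2 fold change -0.08, 95% confidence interval -0.26 to 0.09). Atp6v1h, the H subunit that couples the sectors, had the smallest p (edgeR unadjusted p 0.3). It was at 130, 117, 129 and 123 CPM in S273A libraries, against 127, 132, 128 and 133 CPM in WT libraries, with the 2 lowest values in S273A replicates 3 and 6 (log2 fold change -0.05, 95% confidence interval -0.17 to 0.06). Atp6v1a, the catalytic A subunit, was at 519 ± 20.4 CPM in S273A and 538 ± 47.0 CPM in WT (-0.05; SD, n = 4 each). Of the V0 genes, Atp6v0a1 was at 628 ± 74.5 CPM in S273A and 647 ± 33.9 CPM in WT (-0.04), and Atp6v0d1 at 170 ± 8.97 and 164 ± 4.38 CPM (0.05). The accessory subunit gene Atp6ap1 was at 248 ± 6.80 CPM in S273A and 248 ± 23.3 CPM in WT (0.002).

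None of the 3 regulators passed the test, and their median log2 fold change was 0.002. Tfeb (chr17:47737030-47792419), Tfe3 (chrX:7762560-7775202) and Mitf (chr6:97807052-98021349) all lie on the plus strand in GRCm38. Tfeb was at 45.4, 46.4, 41.1 and 45.1 CPM in S273A replicates 2, 3, 4 and 6, against 41.4, 46.2, 42.7 and 42.9 CPM in WT replicates 1, 2, 3 and 5. Both the highest and the lowest value were S273A libraries (log2 fold change 0.04, 95% confidence interval -0.09 to 0.17, edgeR unadjusted p 0.523). Tfe3 was at 60.6, 64.3, 64.9 and 65.0 CPM in S273A libraries, against 57.9, 63.5, 63.6 and 69.5 CPM in WT libraries, where WT held both extremes (log2 fold change 0.002, 95% confidence interval -0.14 to 0.14). Mitf was at 94.1, 125, 109 and 110 CPM in S273A libraries, with S273A replicate 2 lowest and replicate 3 highest of all 8, against 109, 118, 102 and 118 CPM in WT libraries (log2 fold change -0.03, 95% confidence interval -0.22 to 0.16). These are transcript levels; the activity of the 3 factors is set largely by their phosphorylation and place in the cell, which RNA counts do not show. The 11 genes with CACGTG in a promoter window had log2 fold changes between -0.07 and 0.14, of which 6 were below 0, and the 20 genes with a window that lacks it had values between -0.12 and 0.04, of which 15 were below 0.

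A further 78 lysosome genes outside the 37 were listed, of which 75 were tested. None was called, 0 higher and 0 lower, and none had an unadjusted p under 0.05, where 1.46% of all rows did. Their log2 fold changes had a median of -0.01, with 31 above 0 and 44 below. They included 24 hydrolases and their cofactors and inhibitors (median -0.02), 12 other proton pump genes (-0.0002), 13 membrane genes (-0.004), 6 genes of enzyme sorting (-0.03) and 20 genes of control by mTORC1 and of autophagy (0.02). Within the pump, Atp6v0d2, the alternative d subunit of macrophages and osteoclasts, was at 172 CPM per kilobase over all 8 libraries, above the ubiquitous Atp6v0d1 at 103 CPM per kilobase. It was at 437 ± 63.9 CPM in S273A and 423 ± 65.3 CPM in WT (SD, n = 4 each), with a log2 fold change of 0.04. Tcirg1, the a3 subunit of osteoclasts and macrophages, was at 68.5 CPM per kilobase, against 102 for Atp6v0a1. Atp6v0d2 and Tcirg1 were not chosen by a rule fixed beforehand. Their lengths are those of the deposited table and were not compared with GENCODE.

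Differences between single libraries were larger than that between genotypes. WT replicate 2 was the highest of all 8 libraries for 22 of the 35 genes and S273A replicate 4 the lowest for 19, and for 16 genes both held. As the mean deviation of log2 CPM from each gene's own mean, the 35 genes stood at 0.01, 0.02, -0.10 and 0.02 in S273A replicates 2, 3, 4 and 6, and at -0.07, 0.14, -0.03 and 0.02 in WT replicates 1, 2, 3 and 5. For the proteases alone S273A replicate 4 stood at -0.15 and WT replicate 2 at 0.23. The coefficient of variation within a genotype had a median of 6.75% in S273A and 7.65% in WT over the 35 genes, against 6.32% and 6.37% over the rows at or above their lowest level.

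**Figure D3:**
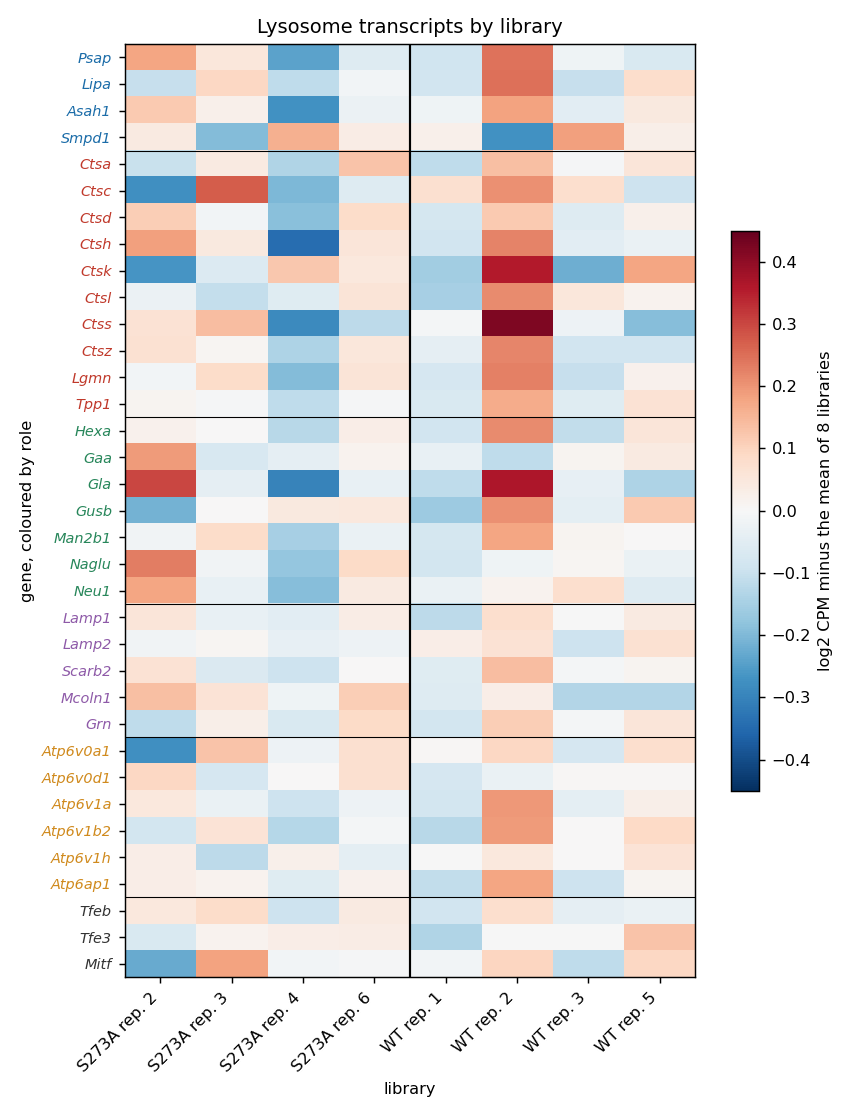
Log2 CPM of each of the 35 genes in each library minus the gene's mean over 8 libraries (colour scale), with S273A libraries left of the line and WT libraries right of it, and gene names coloured by role (blue lipid hydrolysis, red proteases, green glycosidases, purple membrane proteins and Grn, orange proton pump, black MiT/TFE factors). WT replicate 2 is highest for 22 genes and S273A replicate 4 lowest for 19, while Smpd1 and Gaa are lowest in WT replicate 2.

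As the mean of 14 markers, the macrophage level had the same 2 libraries at its ends. Its low end leaned on Mertk, at 102 CPM in S273A replicate 4 and 285 CPM in S273A replicate 2. The mean log2 CPM of 14 macrophage markers, none of them among the 35, was 7.39, 7.55, 7.29 and 7.50 in S273A replicates 2, 3, 4 and 6, and 7.48, 7.68, 7.44 and 7.53 in WT replicates 1, 2, 3 and 5. WT replicate 2 was also highest in the mean of 8 lipid-associated macrophage markers (8.52, with the other 7 libraries between 8.12 and 8.29). It was lowest in the mean of 10 adipocyte markers (8.93, with the others between 9.10 and 9.65). Not every marker followed its mean. Of the macrophage markers, Cd163 was lowest in WT replicate 2, and Mertk was highest in S273A replicate 2. Cd163, Csf1r and Cd14 were highest in WT replicate 5. Adgre1, Csf1r, C1qa and Cd14 were lowest in S273A replicate 2, and Aif1 in S273A replicate 6. The remaining macrophage markers were lowest in S273A replicate 4 and highest in WT replicate 2. Of the lipid-associated macrophage markers, Spp1 and Fabp5 were highest in S273A replicate 2, and Lpl was lowest in WT replicate 2. Of the adipocyte markers, Cfd and Retn were lowest in S273A replicate 6. All values come from the same libraries, so the shares of the cell types in each move together, and their part in the genotype comparison was not tested. The covariate fit given above took its marker level from these same libraries, so it cannot serve as such a test.

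**Figure D4:**
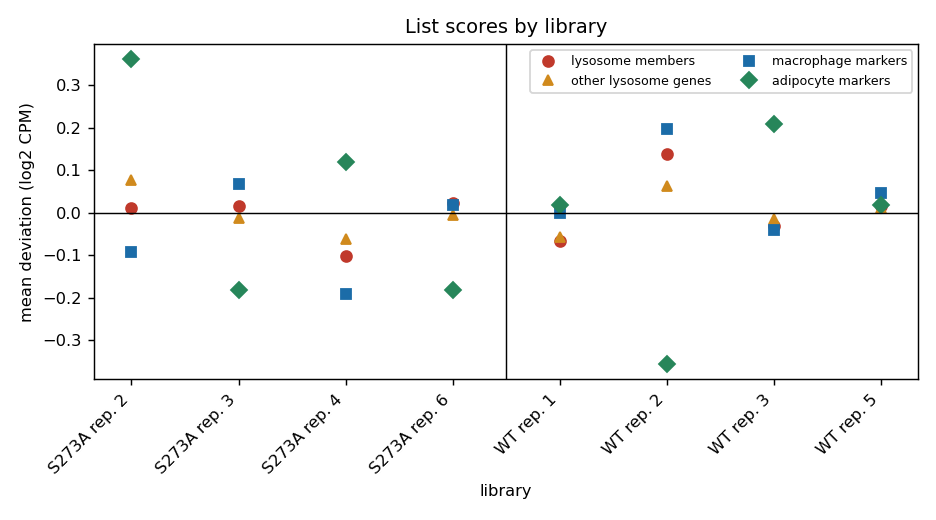
Mean deviation of log2 CPM from each gene's mean over 8 libraries, for the lysosome genes (red), the other lysosome genes (orange), macrophage markers (blue) and adipocyte markers (green), with S273A libraries left of WT libraries. WT replicate 2 is highest for the lysosome genes (0.14) and macrophage markers (0.20) and lowest for adipocyte markers (-0.36).

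Across the 8 libraries, most of the 35 genes had a positive correlation with the macrophage markers and a negative one with the adipocyte markers. No single gene passed the test, the first pattern was lost without 2 libraries, and both were weaker without WT replicate 2 alone. Pearson's r with the macrophage marker level was above 0 for 31 of 35 genes, with a median of 0.62, against a median of 0.03 over all 15653 rows outside the markers. Of the 75 tested genes of the further lysosome list, 45 had an r above 0 and 30 below, with a median of 0.25. After adjustment over all 15653 rows, 0 of 35 passed in either direction, where 0% of rows did. At an unadjusted p under 0.05 by the exact permutation test over all pairings, 11 of 35 had a positive r, where 7.22% of rows did, and 1 a negative r, where 8.29% of rows did. Without S273A replicate 4 and WT replicate 2, the 2 libraries farthest from the median level, r was above 0 for 17 of 35 genes, with a median of -0.20. Without WT replicate 2 alone r was above 0 for 29 of 35 genes, the median r was 0.36 and 2 of 35 had an unadjusted p under 0.05. With the genotype means removed the median was 0.65. With the lipid-associated macrophage level, r was above 0 for 30 of 35 genes, 0 passed after adjustment, and at an unadjusted p under 0.05 by the exact permutation test 9 had a positive r, where 2.91% of rows did, and 1 a negative r, where 4.11% of rows did. Without WT replicates 2 and 5, the 2 libraries farthest from the median of that level, r was above 0 for 22 of 35 genes with a median of 0.07, and those 9 genes had an r between -0.31 and 0.47. By Spearman rho, 2 of 35 genes had an exact permutation p under 0.05, unadjusted, for that level.

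The genes at either end were named after their values were seen. Lgmn had the highest r with the macrophage level, 0.91 (exact permutation p 0.0036, adjusted p 0.204), with a Spearman rho of 0.90 (exact permutation p 0.00456). Without the 2 libraries farthest from the median, S273A replicate 4 and WT replicate 2, its r was 0.60. Lipa followed with an r of 0.90 (exact permutation p 0.000248, adjusted p 0.196) and a rho of 0.98 (exact permutation p 0.000397), and its r without those 2 libraries was 0.88. Smpd1 was at the other end, with an r of -0.83 (exact permutation p 0.00925, adjusted p 0.223), a rho of -0.86 (exact permutation p 0.0107) and an r of -0.62 without the 2. For Psap and Ctsd, which carry much of the summed level, r was 0.62 each (exact permutation p 0.0958 and 0.0972, adjusted p 0.401 and 0.403), with a rho of 0.48 and 0.52 (exact permutation p 0.243 and 0.197), and turned to -0.56 and -0.27 without the 2 libraries.

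Against the adipocyte marker level, r was below 0 for 29 of 35 genes, with a median of -0.46, against -0.06 over all 15657 rows outside the markers. The further lysosome list did not share this: 42 of its 75 tested genes had an r below 0 and 33 above, with a median of -0.06. Again 0 of 35 passed after adjustment, where 0.166% of rows passed with a positive and 0.0447% with a negative r. At an unadjusted p under 0.05 by the exact permutation test, 8 genes had a negative r, where 7.24% of rows did, and 2 a positive r, Smpd1 and Gaa, where 10% of rows did. Atp6v0a1 had the lowest r, -0.88 (exact permutation p 0.00188, adjusted p 0.0908), with a rho of -0.83 (exact permutation p 0.0154) and an r of -0.90 without S273A replicate 2 and WT replicate 2, the 2 libraries farthest from the median. Without those 2 libraries r was below 0 for 30 of 35 genes, with a median of -0.44. Without WT replicate 2 alone the median was -0.12, and r was above 0 for 14 of 35 genes. Mcoln1 had an r of 0.02 with macrophage markers and -0.15 with adipocyte markers (exact permutation p 0.953 and 0.712). Without the 2 libraries farthest from each median, its r was -0.21 with macrophage markers and -0.82 with adipocyte markers.

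**Figure D5:**
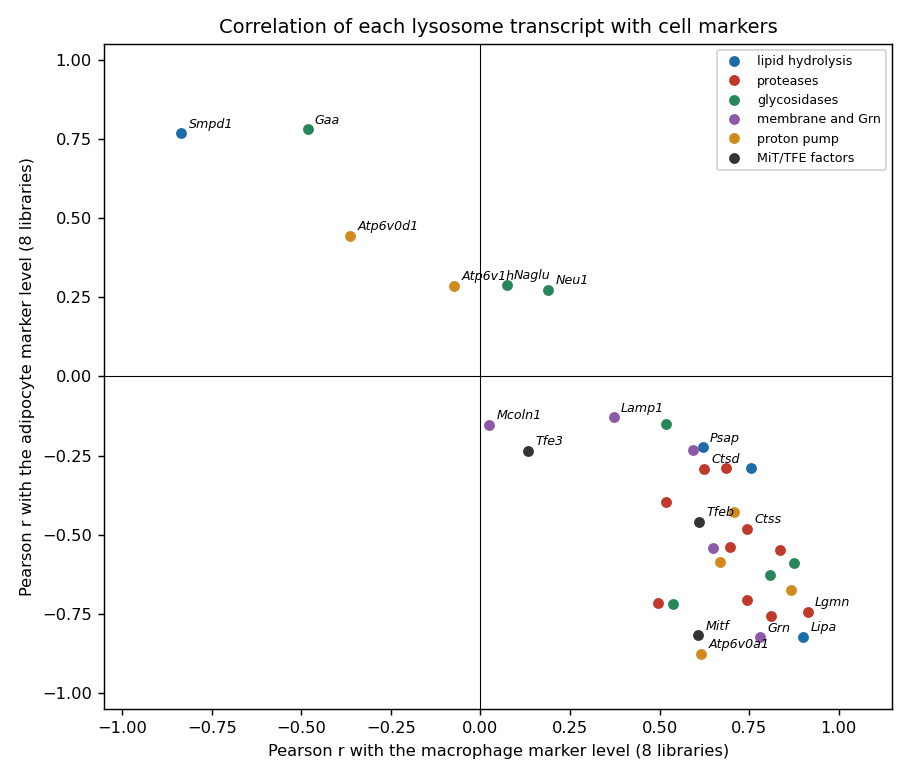
Pearson's r of each of the 35 genes, over 8 libraries, with the macrophage marker level (horizontal axis) and with the adipocyte marker level (vertical axis), coloured by role. Most genes lie at the lower right, with Lgmn and Lipa at 0.91 and 0.90 on the horizontal axis, and Smpd1 and Gaa lie at the upper left.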

How the data were processed

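RNA of epididymal fat was sequenced in 8 libraries. Ribosomal RNA was removed from 400 ng of total RNA, per the labels' protocols, and the cDNA, made without marking the strand, was tagmented and amplified for 12 cycles. Reads were paired, of 36 bases. The authors deposited raw whole-number read counts per gene, with a column of feature lengths in bases, an other quantity used for levels per kilobase. Per the submitters' processing notes, the tools were featureCounts 1.5.2, HISAT2 2.0.5, edgeR 3.3.0, bcl2fastq 2.20.0 and Picard 2.9.2, with mm10. The sources used here do not give their roles or how duplicate and multiply placed reads were treated.

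Counts were filtered with filterByExpr (about 10 counts in at least 4 libraries, total of 15), scaled by TMM and tested with edgeR 4.0.16 (R 4.3.3), glmQLFit with the robust option and glmQLFTest, with Benjamini-Hochberg adjustment over 15667 rows. The test was checked on simulated counts. Levels are TMM-normalised CPM. Log2 CPM used a prior count of 2. Marker correlations used all 40320 pairings of the libraries, two-sided. Positions and exon overlaps are from GENCODE M21 (GRCm38) and promoter windows from RefSeq (GRCm38.p6). DESeq2 1.42.0 and limma-voom (limma 3.58.1) were alternatives.

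The genes and lists were chosen with earlier results of these data known. Values by library are given for Tfeb, Tfe3 and Mitf, for genes with an unadjusted p under 0.05, and, in each role, for the gene with the smallest p and the one highest per kilobase. No symbol of the 35 genes stood on more than 1 row.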

Additional observations from a re-analysis of the deposited data

Results flagged for a closer look

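In 5 of 86 group values looked at, 1 library stood apart from the other 3 of its genotype by more than Dixon's 95% critical value for groups of 4. Chance flags about 1 in 20 groups. S273A replicate 4 stood apart in the mean deviation of all 35 lysosome genes, at -0.10, where the nearest S273A library was at 0.01. It also stood apart in Tpp1, at 268 CPM with the next S273A library at 290 CPM, and in Atp6ap1, at 238 CPM with the next at 250.7 CPM. WT replicate 2 stood apart in Ctsz, at 496 CPM with the next WT library at 415 CPM, and in Ctsh, at 212 CPM with the next at 178 CPM.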

How the results depend on the processing

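Under 16 alternatives, planned with earlier results of these data known, 0 of 560 log2 fold changes of the 35 genes were called, the largest was 0.24 in size and the smallest adjusted p was 0.999. No gene of the further lysosome list was called either, and no correlation of the 35 genes with macrophage or adipocyte markers passed after adjustment under any of its 13 alternatives. Signs changed in 78 of the 560, most often with the macrophage covariate (21 of 35), without WT replicate 2 (14), without S273A replicate 4 (9) and in the replicate block fit (9). Over all rows, 1 row, Gdf3, was called by DESeq2; limma-voom called 0, with 223 rows at an unadjusted p under 0.05 against 229 in edgeR. Leaving out 1 library in turn, the rows called ran from 0 to 1 (Gdf3, without S273A replicate 4), the genes of the 35 with an unadjusted p under 0.05 from 0 to 2, and those without overlap from 0 to 1. In these smaller sets the share of all rows without overlap was not counted.

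Among genes given by library, the sign of the log2 fold change turned with the macrophage covariate for Psap (0.0692), Asah1 (0.0173), Ctsd (0.0729), Hexa (0.0536), Atp6v1b2 (0.00421) and Mitf (0.0496). For Ctsd, whose estimate is almost 0, it also turned with DESeq2 size factors (0.00198), library totals (0.00285), no filter (0.00105), summed rows (0.00236) and DESeq2 (0.00176). Leaving out 1 library turned it for Psap (range -0.101 to 0.04999), Ctsd (-0.0385 to 0.0587), Hexa (-0.0805 to 0.0283), Naglu (-0.00134 to 0.134), Lamp1 (-0.0368 to 0.0266), Tfe3 (-0.0412 to 0.0457) and Mitf (-0.0891 to 0.0379). The cause of these turns was not tested.

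A fit with the replicate number as a block left 0 genes of the 35 at an unadjusted p under 0.05. It turned the sign for Psap (0.00254), Asah1 (0.00425), Ctsd (0.0193), Lamp1 (-0.0267) and Tfe3 (-0.0254). The genotypes share only replicate numbers 2 and 3, whose libraries' deviations correlated at -0.08 and -0.22, so the numbers were not taken as pairs. Depth limits the genes of low count: for Tfeb the counting error was 3.60% in S273A and 3.74% in WT, where its libraries varied by 5.24% within S273A and 4.79% within WT, and the 2.61% variation of Naglu within WT was no larger than its counting error of 2.63%.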
